A study of Mus musculus with 6 samples.

Results

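The respiratory chain of the inner mitochondrial membrane was followed here through 161 probe sets (groups of short probes that report a transcript) of 87 nuclear genes, out of 22626 probe sets and 12393 named genes on the Affymetrix Mouse430A_2 array. Members were taken by symbol: all genes whose names begin with Nduf, Uqcr, Cox4 to Cox8 or Atp5, together with Sdha, Sdhb, Sdhc, Sdhd, Cyc1, Cycs and Cyct, where a probe set was annotated to that gene alone. They cover 33 genes of complex I, 4 of complex II, 9 of complex III, the 2 cytochromes c, 16 genes of complex IV, 17 of complex V and 6 assembly factors that the symbols bring in. Of the 161 probe sets, 156 averaged above a background log2 value of 2.15 that was taken from bacterial control probe sets.

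Testis RNA was compared between 3 arrays titled as spermatogonial stem cells (germ cells that self-renew and supply spermatogenesis) and 3 arrays titled as total testicular cells. All animals were Stra8-CD4HAglo transgenic males, which carry the human surface protein CD4 under a truncated promoter of the germ cell gene Stra8; no age, strain or further allele is given in the labels. Stem cell preparations were the cells that magnetic beads against human CD4 retained, pooled from 50 males each. The total testicular cell arrays carry a source text that instead names cells negative for CD4, so that title and source differ on whether the positive cells had been removed. Every difference is the mean log2 value of the stem cell arrays minus that of the total testicular cell arrays, and levels of different probe sets are not on a common scale.

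Complexes I to IV pass electrons from NADH and succinate to oxygen, I, III and IV pump protons as they do so, and complex V, the ATP synthase, uses the resulting gradient to make ATP. Cytochrome c carries electrons from complex III to complex IV. In mammals a few of these proteins have a second gene used in male germ cells: Cyct encodes the testis cytochrome c beside the widely expressed Cycs, Cox6b2 and Cox8c encode testis forms of complex IV subunits beside Cox6b1 and Cox8a, and other alternatives (Cox6a2, Cox7a1, Cox8b) are typical of heart and skeletal muscle.

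Array quality and cell content set the frame for these values. The stem cell arrays correlated with one another at 0.970 to 0.984 and the total testicular cell arrays at 0.992 to 0.995 over all probe sets, which are not independent replicates. Between 79.7% and 84.1% of probe sets per stem cell array, and between 79.9% and 81.3% per total testicular cell array, lay above background. All markers of macrophages were higher in the stem cell arrays: 13 of 15 measured passed the test, and their summed linear value ran from 2990 to 11100 on the stem cell arrays, highest on array 1, against 303 to 452 on the total testicular cell arrays. Leydig cell markers summed to 1150 to 3950 against 579 to 1040 (0 of 7 passed). All 7 were higher, 5 of them without overlap (13.5% of all probe sets), with a list median of 1.64. Sertoli cell markers summed to 1440 to 2840 against 727 to 917 (1 of 10 passed, Clu, which encodes clusterin). Clu read 11.04, 9.52 and 10.31 against 8.34, 8.35 and 8.14. It was the highest of the Sertoli cell markers on every stem cell array and weighs most in their sums. Sox9 (-0.01), Gata4 (0.06), Wt1 (0.11) and Amh (-0.11) differed little, while Inha (1.10) and Aard (0.46) were higher without passing. The median of the Sertoli list was 0.30, with 8 of 10 positive. Meiotic markers summed to 2930 to 3950 against 4100 to 4560 (0 of 10 passed), and spermatid markers to 35200 to 43400 against 36300 to 44500 (0 of 9 passed). Peritubular muscle markers summed to 372 to 674 against 363 to 590 (0 of 6 passed). Actg2 (-0.09), the highest of them on every array, weighs most in these sums. Acta2 was higher by 0.60 without overlap (limma adjusted p = 0.204), and the list's median was -0.02, with 3 of 6 positive. Markers of undifferentiated spermatogonia, which the titles would place in the stem cell arrays, summed to 212 to 333 there against 352 to 362, and 0 of 15 passed. Without Id4, the most abundant of them, left out after its values were seen, the sums were 99.1 to 115 against 96.3 to 107. Itga6 was higher by 0.99 on the log2 scale (limma adjusted p = 0.0739), and Lin28a and Cdh1 among them averaged below background in both groups. Stra8 stood at 5.61, 4.80 and 5.77 on the stem cell arrays against 4.42, 4.54 and 4.20 (limma adjusted p = 0.0832), and Spi1, which encodes the factor PU.1 of the series title, was higher by 1.40 on the log2 scale (limma adjusted p = 0.0684). The part of these cell types in the differences below was not tested, and fewer cells of a type cannot be told apart from less RNA per cell.

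The results turn on the testis paralogue pairs, so promoter windows from 250 bases before to 50 bases after the gene start are printed for those that have one in RefSeq's GRCm38.p6 table, 5′ to 3′ on the gene's strand. Capitals mark matches, on either strand, to 4 motifs: the cyclic AMP response element TGACGTCA and its half-site TGACG (contained in the full element), the ETS motif CCGGAAG and the NRF1 motif, GCGCA and GCGC with 1 base of any kind between them. Cyct lies on the minus strand at chr2:76360404-76360703, Cycs on the minus strand at chr6:50566520-50566819, Cox6b2 and Cox6b1 on the minus strand at chr7:4753045-4753344 and chr7:30626065-30626364, and Cox8a on the minus strand at chr19:7217567-7217866.
Cyct: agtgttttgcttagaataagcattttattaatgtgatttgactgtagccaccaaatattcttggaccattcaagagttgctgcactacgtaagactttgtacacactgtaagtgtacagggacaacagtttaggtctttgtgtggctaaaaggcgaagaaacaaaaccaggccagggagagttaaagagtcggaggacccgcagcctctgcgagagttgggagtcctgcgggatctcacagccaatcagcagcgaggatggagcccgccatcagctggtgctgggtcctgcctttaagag
Cycs: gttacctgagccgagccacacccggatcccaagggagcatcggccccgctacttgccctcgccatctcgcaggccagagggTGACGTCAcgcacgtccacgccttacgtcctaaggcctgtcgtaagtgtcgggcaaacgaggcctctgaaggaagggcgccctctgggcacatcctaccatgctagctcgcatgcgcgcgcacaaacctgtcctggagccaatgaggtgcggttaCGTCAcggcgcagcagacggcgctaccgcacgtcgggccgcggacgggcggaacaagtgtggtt
Cox6b2: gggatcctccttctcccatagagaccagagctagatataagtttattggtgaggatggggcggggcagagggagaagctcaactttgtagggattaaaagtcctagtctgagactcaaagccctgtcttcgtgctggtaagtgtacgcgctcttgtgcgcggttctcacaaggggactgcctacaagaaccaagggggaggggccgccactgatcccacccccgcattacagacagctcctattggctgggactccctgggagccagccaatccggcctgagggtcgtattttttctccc
Cox6b1: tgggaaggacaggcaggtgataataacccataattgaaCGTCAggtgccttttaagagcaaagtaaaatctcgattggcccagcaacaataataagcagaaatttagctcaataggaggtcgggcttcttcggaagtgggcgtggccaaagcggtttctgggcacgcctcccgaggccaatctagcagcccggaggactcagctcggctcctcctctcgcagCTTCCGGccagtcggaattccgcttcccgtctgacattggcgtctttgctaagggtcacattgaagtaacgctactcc
Cox8a: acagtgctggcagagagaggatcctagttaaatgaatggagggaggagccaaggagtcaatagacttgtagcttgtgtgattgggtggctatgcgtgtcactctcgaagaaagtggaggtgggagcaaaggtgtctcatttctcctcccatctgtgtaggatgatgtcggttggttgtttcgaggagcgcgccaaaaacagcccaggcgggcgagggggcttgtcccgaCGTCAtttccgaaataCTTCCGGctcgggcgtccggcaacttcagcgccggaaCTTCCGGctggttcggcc

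None of the 4 motifs stood in the windows of the testis genes Cyct and Cox6b2. The window of Cycs held the full response element at position -169 (counted so that the gene's first base is 1) and a further half-site at -14. That of Cox6b1 held a half-site at -212 and an ETS motif at -28, and that of Cox8a a half-site at -21 and ETS motifs at -5 and 33. Of all 32851 promoter windows in the table, 1.79% held the full response element, 20.8% the half-site, 8.86% the ETS motif and 4.6% the NRF1 motif. Among the 72 member genes with a window, 5.56%, 37.5%, 25% and 22.2% held them in any of their windows, in that order. All 4 motifs contain the letters CG, which member windows held more often. The median was 19 per window over 77 member windows against 7 over all windows, with 58.7% and 52.7% G or C. The windows of Cyct and Cox6b2 held CG 8 and 10 times, those of Cycs, Cox6b1 and Cox8a 32, 17 and 19 times. The part of this in the motif shares was not tested. These are letter matches and no measure of binding.

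Across the whole set, most respiratory chain transcripts differed little between the groups. Of the 161 probe sets, 2 rose in the stem cell arrays by limma at an adjusted p under 0.05, 1 of Cycs and 1 of Cox8a, against 1.40% of all probe sets called higher. In the other direction 0 were called, against 0.150% of all. At an unadjusted p under 0.05, 21 members were higher and 14 lower, where 11.4% and 12.1% of all probe sets were. The median difference of the members was 0.01, beside -0.03 over all probe sets. Of the 87 genes, each represented by its probe set of highest mean, 59 lay within 0.25 of 0, a count that was not made over all genes. Differences were positive for 82 members and negative for 79 (45.0% of all probe sets were positive), but with arrays centred on their medians, which moved the median of all probe sets to -0.15, for 53 and 108 (32.9% of members and 29.9% of all probe sets positive). All 3 stem cell values lay above all 3 total testicular cell values for 29 member probe sets (13.5% of all probe sets) and below them for 25 (17.5% of all).

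The largest differences belonged to a small group of subunits. A difference of at least 0.5 was seen for 16 probe sets of 11 genes (9.54% of all probe sets): Cycs, Cox6b1, Cox8a, Ndufa4, Ndufb11, Ndufa1, Ndufc2, Cyc1, Atp5g2, Atp5g3 and a minor probe set of Sdha. At -0.5 or less stood 3 probe sets (8.64% of all), of Ndufa5 and the assembly factors Ndufaf5 and Ndufaf7. These are the tails of the spread in the plot of members by complex.

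**Figure D1:**
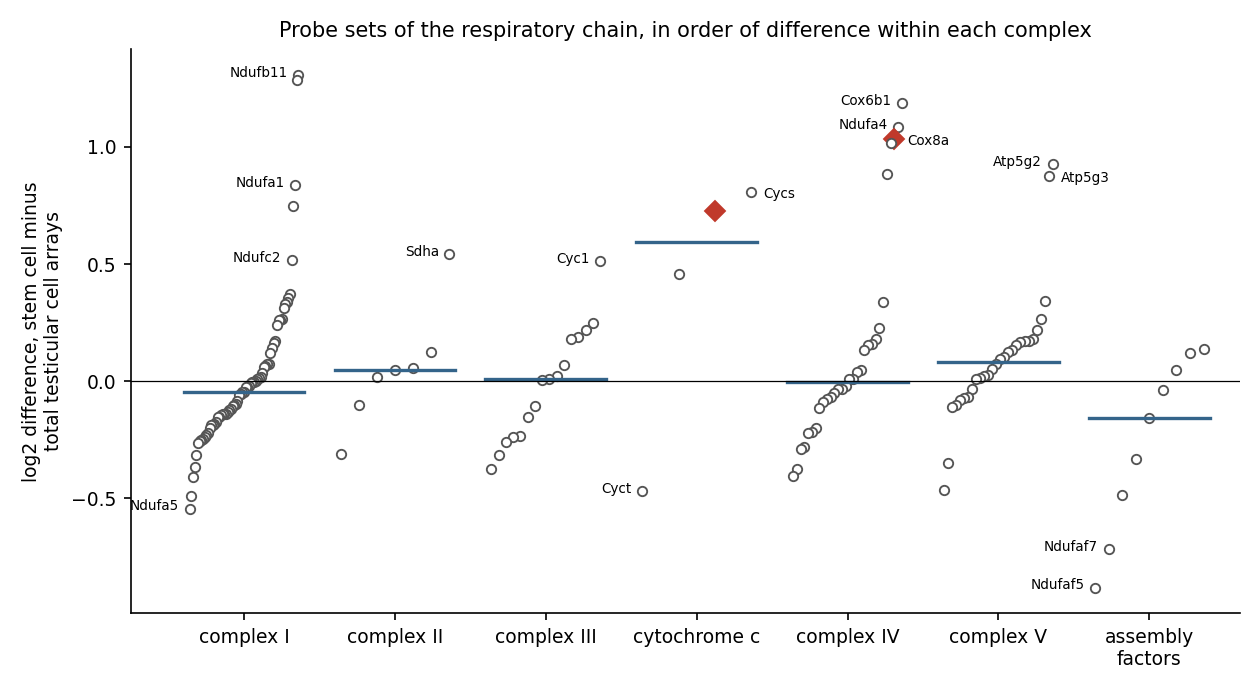
Log2 difference of each of the 161 member probe sets (stem cell minus total testicular cell arrays, vertical axis) by complex, in order of size within a complex; blue lines are medians and filled diamonds the 2 probe sets called by limma (Cycs and Cox8a). Most points lie near 0, with medians of -0.04 for complex I, 0.05 for II, 0.01 for III, -0.0047 for IV, 0.08 for V and -0.15 for assembly factors (centring arrays on their medians gave -0.065, -0.10 and -0.027 for II, III and V), and the labelled genes lie beyond 0.5 in either direction, Cyct excepted.

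Cytochrome c showed opposite differences in its 2 genes. The widely expressed Cycs was measured by 3 probe sets. Probe set 1422483_a_at read 8.46, 8.19 and 8.19 on stem cell arrays 1, 2 and 3, against 7.49, 7.67 and 7.49 on total testicular cell arrays 1, 2 and 3. The groups did not overlap, and this probe set rose 1.65-fold (log2 difference 0.73 ± 0.15 SE, limma adjusted p = 0.0482). Among arrays put in the same fluidics round by their recorded clock times, the difference was 0.97 in round 1 and 0.52 in round 3. Blocking on the round gave 0.77 (limma adjusted p = 0.0422). Stem cell array 3 is alone in its round, so this block leaves it out of the difference, here and for every gene below. With the fluidics module as a block, which sets stem cell array 2 against total testicular cell array 3 alone, the difference was 0.69. The call was lost with arrays centred on their median (limma adjusted p = 0.0662) and without an intensity trend in the fit (limma adjusted p = 0.0586). Without total testicular cell replicate 1, 2 or 3 the difference was 0.70, 0.78 and 0.70, with limma adjusted p = 0.245, 0.135 and 0.242.

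The other probe sets of Cycs did not pass. Probe set 1456071_a_at, the one of highest mean, read 9.44, 8.62 and 8.71 in stem cells and 7.99, 8.43 and 7.92 in total testicular cells, without overlap (0.81, limma adjusted p = 0.10). Probe set 1422484_at differed by 0.46 (limma adjusted p = 0.161). The testis gene Cyct, with 1 probe set, stood lower: 7.66, 8.39 and 8.04 in stem cells against 8.42, 8.63 and 8.45 in total testicular cells. Its groups did not overlap, stem cell array 2 coming closest, and the difference of -0.47 ± 0.19 (SE) did not pass (limma adjusted p = 0.182). It was -0.78 within round 1, -0.24 within round 3 and -0.054 within module 2, and ranged from -0.65 to -0.28 with 1 array left out.

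Complex IV, cytochrome c oxidase, held the 2 further testis pairs. Cox8a, the widely expressed form of a small membrane subunit, read 7.41, 6.67 and 6.97 in stem cells against 5.999, 6.10 and 5.86 in total testicular cells. The groups did not overlap, and the probe set (1416112_at) rose 2.05-fold (1.03 ± 0.21 SE, limma adjusted p = 0.0482). A second probe set gave 1.02 (limma adjusted p = 0.0749) and a further one, close to background, 0.18. Within round 1 Cox8a differed by 1.48 and within round 3 by 0.58. The round as a block gave 1.09 (limma adjusted p = 0.0425) and the module as a block 0.81. Leaving out total testicular cell replicate 1, 2 or 3 gave 1.04, 1.09 and 0.97, none of them past the threshold (limma adjusted p = 0.229, 0.140 and 0.238). Quantile normalization, centred arrays and a fit without an intensity trend also lost the call (limma adjusted p = 0.0514, 0.0518 and 0.0589). Its testis paralogue Cox8c read 10.14, 10.55 and 10.53 in stem cells and 10.60, 10.69 and 10.54 in total testicular cells, overlapping, with a difference of -0.20 (limma adjusted p = 0.374).

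Cox6b1, a subunit on the intermembrane side, had the largest difference within complex IV. It read 9.25, 8.52 and 8.27 in stem cells against 7.39, 7.77 and 7.32 in total testicular cells. The groups did not overlap, and the difference of 1.19 ± 0.25 (SE), 2.28-fold, lay just outside the threshold (limma adjusted p = 0.0513), with 0.88 for its second probe set. Its call depended on the setting. It passed without stem cell replicate 1, 2 or 3 (0.91, 1.27 and 1.39, with limma adjusted p = 0.0253, 0.0476 and 0.0119), with the round as a block (1.41, limma adjusted p = 0.0217) and with centred arrays (1.08, limma adjusted p = 0.0499). It did not pass without total testicular cell replicate 1, 2 or 3 (limma adjusted p = 0.235, 0.126 and 0.240) or with the module as a block (1.21, limma adjusted p = 0.216). The testis form Cox6b2 read 10.04, 10.66 and 10.22 in stem cells against 10.68, 10.72 and 10.66 in total testicular cells. Stem cell array 2 was practically level with the lowest of the other group, and the difference of -0.38 did not pass (limma adjusted p = 0.177). It passed without that array (-0.55, limma adjusted p = 0.0345), but was -0.24 without stem cell replicate 1, -0.058 within round 3 and -0.0017 with the module as a block (limma adjusted p = 0.998).

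**Figure D2:**
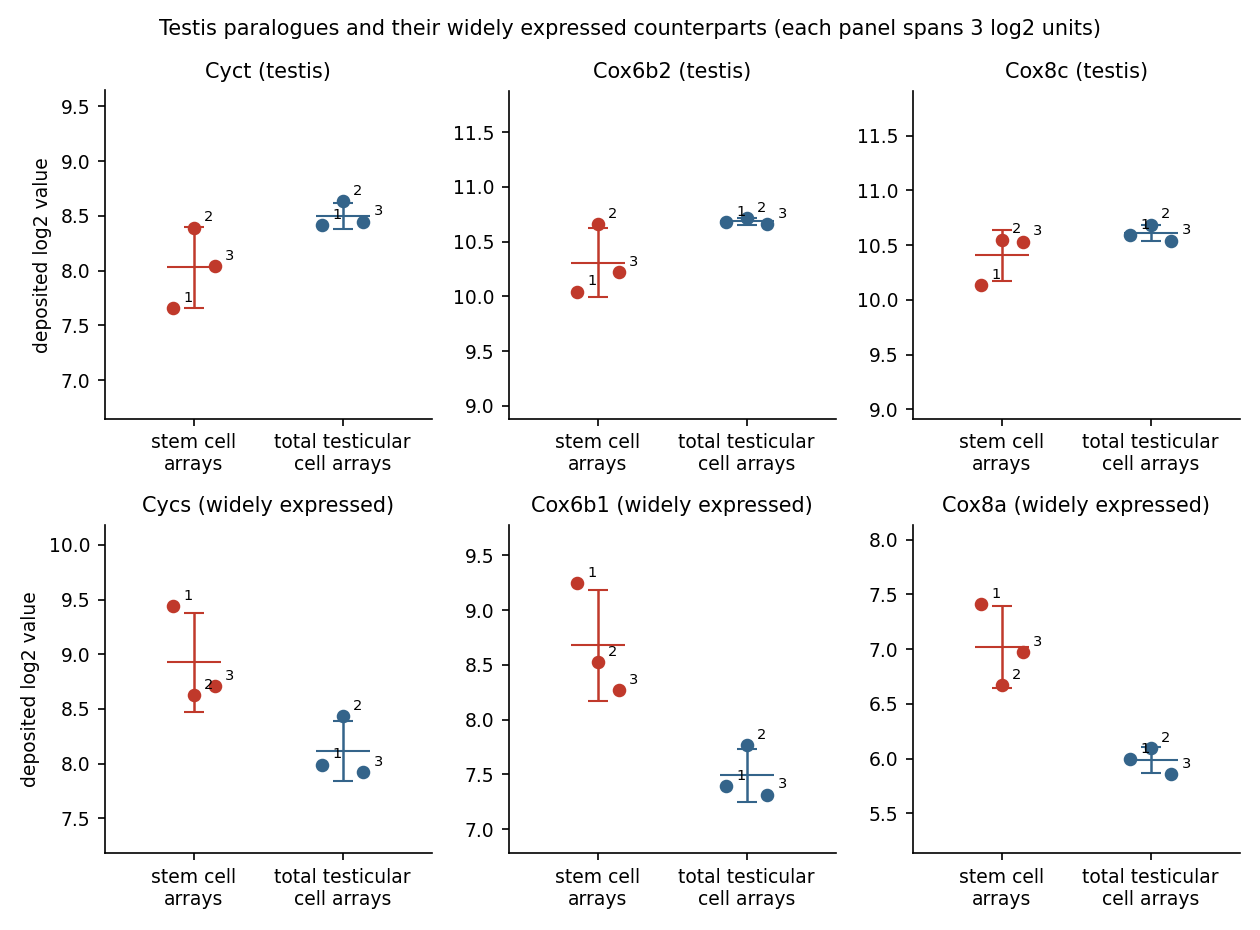
Deposited log2 values of 3 testis genes (upper row) and their widely expressed paralogues (lower row) on each array, numbered by replicate, with stem cell arrays left of total testicular cell arrays; horizontal bars are means and error bars SD (n = 3), and each gene stands by its probe set of highest mean. Every stem cell value of Cycs, Cox6b1 and Cox8a lies above every total testicular cell value, while Cyct and Cox6b2 lie below and Cox8c overlaps.

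Set against each other within an array, the testis gene lay lower relative to its widely expressed partner in all 3 pairs. The log2 ratio of Cyct to Cycs was lower by 1.28 ± 0.47 (SE) in the stem cell arrays, a 2.42-fold shift toward Cycs; array by array the shift was -2.17, -0.61 and -1.05. For Cox6b2 against Cox6b1 the difference was -1.57 ± 0.44, with -2.40, -1.06 and -1.24 on the 3 stem cell arrays. For Cox8c against Cox8a it was -1.23 ± 0.34, with -1.90, -0.74 and -1.06. In all 3 pairs the stem cell arrays lay below every total testicular cell array, whose own ratios spanned 0.32, 0.39 and 0.09. The exact two-sided permutation test gave p = 0.1 for each, the smallest that 3 arrays against 3 allow, and 0.2 after Benjamini-Hochberg adjustment over the 10 pairs compared.

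The sign was the same for every combination of probe sets, from -1.28 to -0.93 for cytochrome c, from -1.57 to -1.26 for Cox6b and from -1.23 to -0.38 for Cox8, the last including the dim Cox8a probe set. Within fluidics round 1 the 3 ratios differed by -2.26, -2.52 and -1.91, within round 3 by -0.43, -0.82 and -0.71, and within module 2 by -0.75, -1.21 and -0.80. Stem cell array 1, on which macrophage and Leydig cell markers were highest and meiotic markers lowest, showed the largest shift in each pair. The direction was the same without that array.

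Pairs whose alternative gene belongs to other tissues did not share a direction. The alternatives lay near background in both groups for the most part: Cox4i2, typical of lung, read 1.80, 2.16 and 2.55 in stem cells against 2.39, 2.33 and 2.66, and Cox8b read 2.51, 2.16 and 2.64 against 2.27, 2.54 and 2.38. Cox7a1 read 3.75, 3.49 and 2.59 in stem cells against 3.24, 3.19 and 2.91, and Cox6a2 read 4.32, 3.99 and 4.22 against 4.39, 4.18 and 4.22. All 4 overlapped between groups. Their partners Cox4i1 (10.02, 10.20 and 9.94 against 10.14, 10.14 and 9.99), Cox7a2 (10.74, 10.88 and 10.83 against 10.91, 10.90 and 10.83) and Cox6a1 (10.95, 10.77 and 10.38 against 10.42, 10.67 and 10.33) overlapped too. The ratio of Cox4i2 to Cox4i1 differed by -0.25 (exact permutation p = 0.4), Cox6a2 to Cox6a1 by -0.32 (exact p = 0.2), Cox7a1 to Cox7a2 by 0.23 (exact p = 0.7) and Cox8b to Cox8a by -0.99 (exact p = 0.1), without overlap, where Cox8b itself differed by 0.04.

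**Figure D3:**
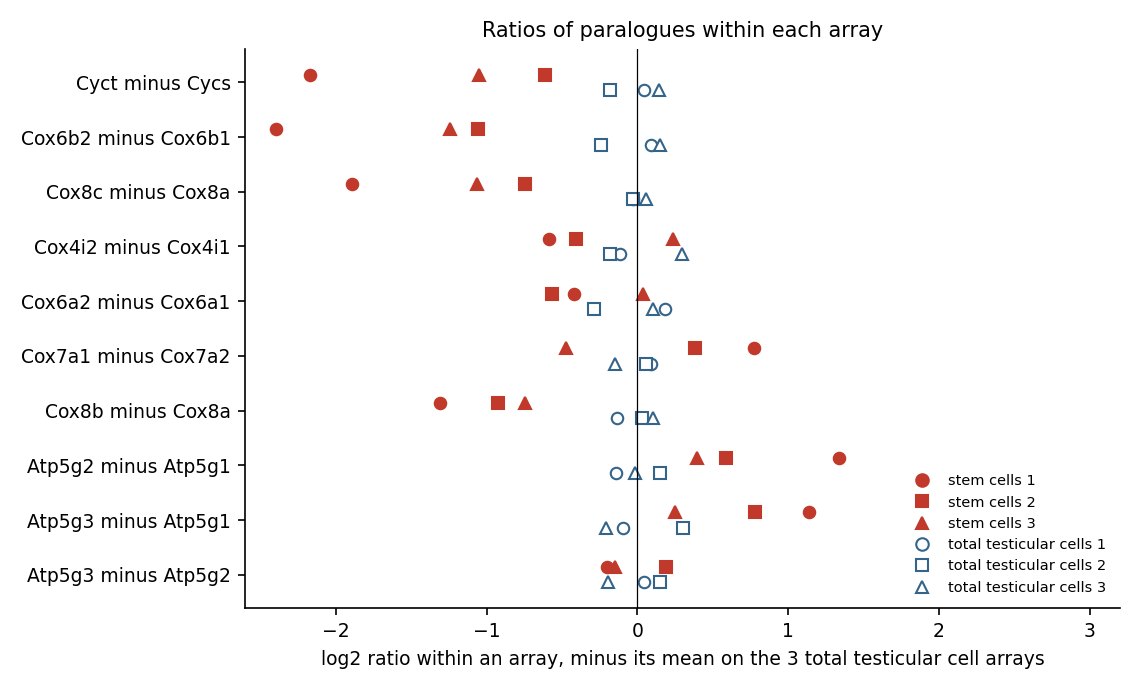
Log2 ratio of each of 10 paralogue pairs within an array, relative to its mean on the 3 total testicular cell arrays (horizontal axis); filled red symbols are stem cell arrays and open blue ones total testicular cell arrays, with 1 shape per replicate. The 3 testis pairs at the top lie at -0.61 or lower on every stem cell array, as does Cox8b against Cox8a (-1.31, -0.92 and -0.75), while Cox4i2, Cox6a2 and Cox7a1 against their partners overlap between the groups.

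Ndufa4, once counted in complex I and now known as a complex IV subunit, lay next to Cox6b1 in size of difference. Its values were 7.34, 6.53 and 6.23 in stem cells against 5.51, 5.83 and 5.503, without overlap (1.09 ± 0.27 SE, limma adjusted p = 0.0787). With the round as a block, which leaves out stem cell array 3, it passed (1.35, limma adjusted p = 0.0317). With the module as a block the difference was 1.02. Cox5a (0.01) and Cox5b (0.05), which sit against the catalytic core on the matrix side, and Cox6c (-0.02) differed little, with 95% intervals of -0.22 to 0.24, -0.18 to 0.28 and -0.26 to 0.22. Their other probe sets reached down to -0.40 for Cox5a, -0.28 for Cox5b and -0.22 for Cox6c. Cox7c was seen only through probe sets averaging 1.98 and 2.24 in stem cells against 1.85 and 2.23 in total testicular cells, close to background.

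In complex V the largest differences were those of the proton-driven c ring, whose single subunit is encoded by 3 genes with the same mature protein. Atp5g2 read 8.01, 7.21 and 7.03 in stem cells against 6.35, 6.63 and 6.49, without overlap (0.93 ± 0.25 SE, limma adjusted p = 0.0868). Atp5g3 read 9.93, 9.52 and 9.003 against 8.52, 8.90 and 8.42, also without overlap (0.88 ± 0.23 SE, limma adjusted p = 0.0833). With the round as a block, which leaves out stem cell array 3, both passed (1.16 and 1.10, limma adjusted p = 0.0386 and 0.0218). With the module as a block the differences were 0.72 and 1.11. Atp5g1 read 7.66, 7.61 and 7.62 against 7.48, 7.46 and 7.49, a small gap of 0.15 with narrow groups (limma adjusted p = 0.508).

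Relative to Atp5g1, Atp5g2 was higher by 0.77 ± 0.30 (SE, exact permutation p = 0.1) and Atp5g3 by 0.72 ± 0.30 (exact p = 0.2) in the stem cell arrays, while Atp5g3 against Atp5g2 differed by -0.05 (exact p = 0.9). A second Atp5g2 probe set lay below background. Genes of the catalytic F1 head, Atp5a1 (0.05), Atp5b (-0.10), Atp5c1 (0.34), Atp5d (0.26) and Atp5e (-0.08), did not pass, nor did those of the stalk, Atp5o (-0.03), Atp5pb (0.17), Atp5h (0.01) and Atp5j (-0.07). The membrane subunits Atp5j2, Atp5k, Atp5l, Atp5md and Atp5mpl ranged from 0.02 to 0.22. For complex V as a whole, 8 of 28 probe sets lay without overlap above the total testicular cell arrays and 2 below, against 13.5% and 17.5% of all probe sets.

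Complex I, the NADH dehydrogenase and largest of the complexes, had 0 of 67 probe sets called by limma. At an unadjusted limma p under 0.05, 8 were higher and 5 lower, beside 11.4% and 12.1% of all probe sets. The 2 complex I genes of largest difference lie on the X chromosome. Ndufb11 read 8.15, 7.35 and 6.64 in stem cells against 5.89, 6.49 and 5.83, without overlap (1.31 ± 0.35 SE, limma adjusted p = 0.0872), with 1.29 and 0.75 for its other probe sets. With the round as a block, which leaves out stem cell array 3, it passed (1.67, limma adjusted p = 0.0241). With the module as a block the difference was 1.52. Without stem cell replicate 1 it was 0.50, where another probe set became the one of highest mean. Ndufa1, needed for assembly of the membrane arm, read 9.18, 8.59 and 8.62 against 7.78, 8.31 and 7.78, again without overlap (0.84 ± 0.21 SE, limma adjusted p = 0.0769).

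These 4 probe sets are the only X-linked members, and 3 of the 4 lay without overlap above the total testicular cell arrays. Among all 668 X-linked probe sets 31.1% did so, against 13.5% of the whole array, 2.69% were called higher (0 of the 4 members), and 74.6% had a positive difference, against 45.0%. The median over all X-linked probe sets was 0.16, and the 4 members ranged from 0.75 to 1.31. As background, the X chromosome is silenced in spermatocytes during meiosis. The 157 member probe sets on other chromosomes had a median of -0.0041.

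The 6 core subunits of complex I that were measured (Ndufv1, Ndufv2, Ndufs1, Ndufs3, Ndufs7 and Ndufs8) ranged from -0.24 to 0.37 over 16 probe sets. Among accessory subunits Ndufc2 (0.52), Ndufa3 (0.33) and Ndufv3 (0.26) were the next highest. Ndufa5, a subunit of the peripheral arm, was the lowest: 7.74, 8.75 and 8.44 in stem cells against 8.92, 8.92 and 8.73, overlapping at stem cell array 2 (-0.54, limma adjusted p = 0.201). Its other probe set gave -0.18, and the value was -0.16 within round 3, 0.028 with the module as a block and -0.77 to -0.26 with 1 array left out. Ndufs4 read 7.86, 8.39 and 8.18 against 8.62, 8.53 and 8.51, without overlap (-0.41, limma adjusted p = 0.169), and Ndufb1 differed by -0.32. The other 19 accessory genes (Ndufa2, Ndufa6, Ndufa7, Ndufa8, Ndufa9, Ndufa10, Ndufa12, Ndufa13, Ndufab1, Ndufb2, Ndufb3, Ndufb5, Ndufb6, Ndufb7, Ndufb8, Ndufb9, Ndufb10, Ndufc1 and Ndufs5) ranged from -0.26 to 0.12.

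Complex II, succinate dehydrogenase, which links the chain to the tricarboxylic acid cycle, had 0 of 7 probe sets called by limma. At an unadjusted limma p under 0.05, 1 was higher and 0 lower, beside 11.4% and 12.1% of all probe sets. Sdha, the flavin subunit, read 8.70, 8.79 and 8.50 in stem cells against 8.58, 8.73 and 8.56 in total testicular cells, and Sdhb, the iron-sulphur subunit, 9.21, 9.07 and 8.89 against 8.90, 9.02 and 8.87. Both overlapped, with differences of 0.05 (95% interval -0.25 to 0.35) and 0.13 (-0.17 to 0.42). The membrane anchors Sdhc (6.44, 6.64 and 5.95 against 6.51, 6.71 and 6.74) and Sdhd (7.19, 7.31 and 7.04 against 7.25, 7.31 and 7.28) differed by -0.31 and -0.10. The 2 probe sets of Sdha gave 0.05 and 0.54.

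In complex III, which passes electrons from ubiquinol to cytochrome c, Cyc1 had the largest difference, which did not pass. Cyc1 encodes the haem-bearing cytochrome c1 and read 7.57, 7.26 and 7.22 in stem cells against 6.77, 6.94 and 6.79, without overlap (0.51 ± 0.16 SE, limma adjusted p = 0.113). The Rieske iron-sulphur protein gene Uqcrfs1 differed by -0.24, and the core protein genes Uqcrc1 and Uqcrc2 by -0.23 and -0.15. Uqcrb, Uqcrh, Uqcrq, Uqcr10 and Uqcr11, small subunits, ranged from -0.26 to 0.22. None of the 16 probe sets passed by limma. At an unadjusted limma p under 0.05, 1 was higher and 0 lower, beside 11.4% and 12.1% of all probe sets.

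Of the 6 assembly factor genes, 0 were called by limma, and 4 lay below the total testicular cell arrays without overlap. Ndufaf5, which modifies an arginine of a complex I core subunit, read 3.52, 4.58 and 4.27 in stem cells against 4.98, 4.78 and 5.26 (-0.88 ± 0.28 SE, limma adjusted p = 0.118). Ndufaf7, an arginine methyltransferase for another core subunit, read 5.19, 6.04 and 5.65 against 6.32, 6.43 and 6.28 (-0.72 ± 0.22 SE, limma adjusted p = 0.114), without overlap. It passed without stem cell replicate 2 (-0.92, limma adjusted p = 0.0377), but not without any other array (-0.75 to -0.50, limma adjusted p up to 0.325), and was -0.24 with the module as a block. Ndufaf1 read 4.90, 5.20 and 4.73 against 5.45, 5.53 and 5.30 (-0.49, limma adjusted p = 0.164). In all of these, as in Ndufaf3 (-0.33), the groups did not overlap; Ndufaf4 (0.12) and the supercomplex factor Cox7a2l (-0.15) overlapped. Of 9 assembly factor probe sets, 4 lay below without overlap (17.5% of all probe sets).

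Stem cell array 1 carried the largest differences in both directions. Of the 10 genes with a difference of at least 0.5, stem cell array 1 was the highest of the 3 stem cell arrays in 10, array 3 the lowest in 7 and array 2 in 3. Of the 10 genes at -0.3 or less, array 1 was the lowest in 8 and array 2 the closest to total testicular cells in 10. The summed macrophage markers, at 11100, 3980 and 2990 on stem cell arrays 1, 2 and 3, and the summed meiotic markers, at 2930, 3950 and 3640, are set beside these orders, and their part in them was not tested.

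**Figure D4:**
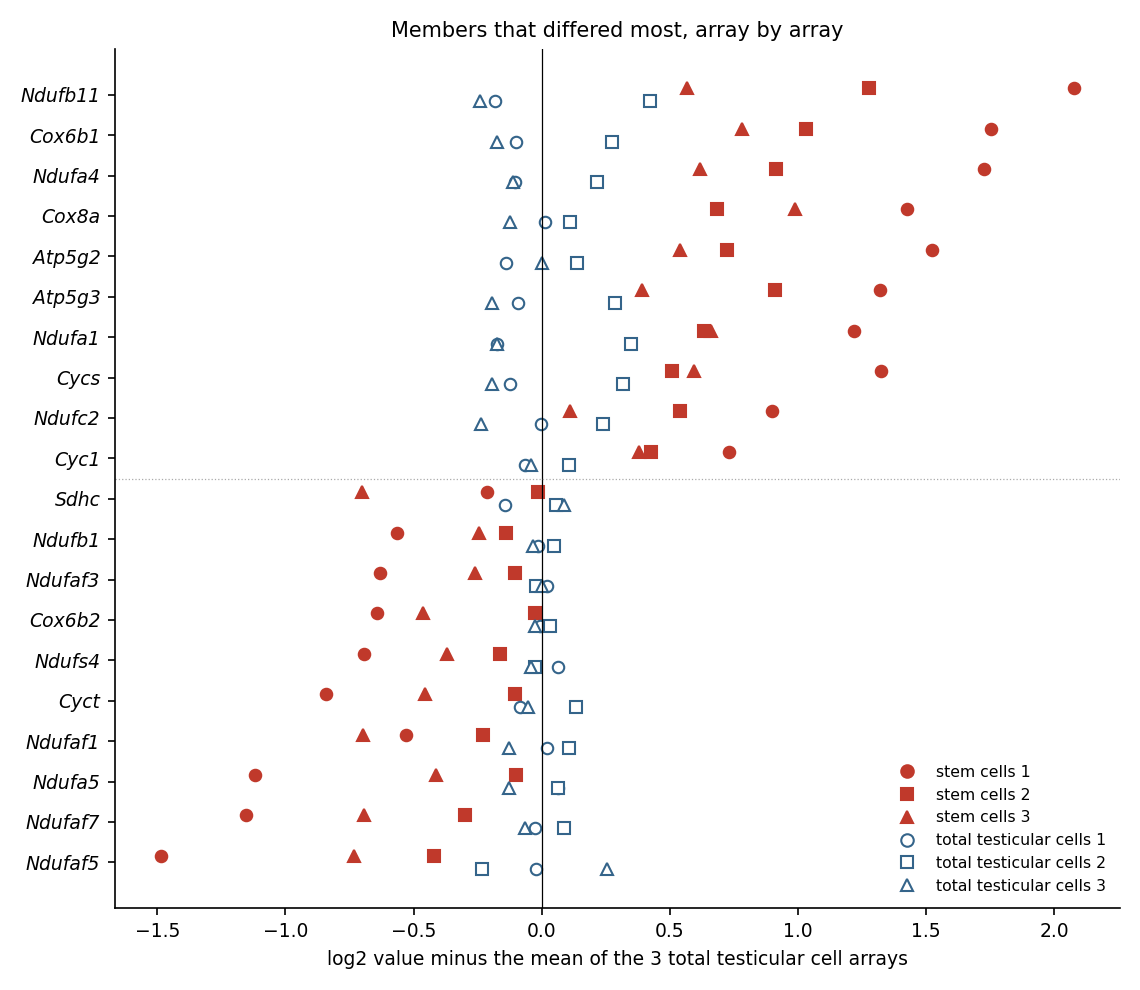
Log2 value of 20 member genes on each array relative to its total testicular cell mean (horizontal axis); filled red symbols are stem cell arrays, open blue symbols total testicular cell arrays, and shapes mark replicates. The upper 10 genes differ by at least 0.5 and the lower 10 by -0.3 or less; stem cell array 1 (circles) is farthest from 0 in all 10 of the upper genes and in 8 of the lower ones.

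Other mitochondrial genes were read from lists of related function, in which 0 passed in either direction by limma. Carriers and channels that serve the chain included Slc25a5, Slc25a4 and Slc25a3, which exchange ATP, ADP and phosphate, and Vdac1, a pore of the outer membrane: 4 of 9 measured genes lay without overlap above the total testicular cell arrays (13.5% of all probe sets), and 4 had an unadjusted p under 0.05. These 4 are the ones named. The list's median was 0.14, and Vdac2 (-0.05), Vdac3 (-0.08) and the ATP synthase inhibitor Atpif1 (-0.20) were slightly lower without passing. The tricarboxylic acid cycle list of 16 genes had a median of -0.10, with 3 higher and 2 lower at an unadjusted p under 0.05, where 11.4% and 12.1% of all probe sets were. The 17 further assembly factors had a median of -0.23 (2 higher and 3 lower at that p) and the 12 regulators of mitochondrial biogenesis a median of -0.30 (0 higher and 2 lower).

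Singled out after their values were seen, the pyruvate dehydrogenase genes formed another testis pair: the X-linked, widely expressed Pdha1 read 5.66, 4.61 and 3.78 in stem cells against 3.48, 3.81 and 3.69 (1.03, limma adjusted p = 0.168), and its testis copy Pdha2 read 8.93, 9.64 and 9.30 against 9.75, 9.79 and 9.71 (-0.46, limma adjusted p = 0.155). Pdha1 overlapped at stem cell array 3, Pdha2 did not overlap, and neither passed. Slc25a5, also X-linked, read 9.41, 8.57 and 7.98 against 7.02, 7.51 and 6.87 (1.52, limma adjusted p = 0.0570).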

How the data were processed

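RNA from 6 cell preparations went onto Mouse430A_2 arrays, per the labels' protocols. The authors deposited log2 probe set summaries (lowest 1.20, highest 13.2); per the submitters' processing notes MAS5 and RMA were used, with no version or role, and the sources used here do not tie either to the values. No further normalization was applied. Array records, per the file headers, gave 1 chip lot, 1 scanner, 1 scan day and 4 fluidics modules. The headers name no fluidics rounds: the 3 rounds were inferred here from the clock times of the hybridization entries, joining run starts under 15 minutes apart.

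Groups and replicate numbers came from the titles; nothing in the labels says that replicates came from separate animals beyond the pools, so p-values measure the spread between these preparations. Of 22690 probe sets 64 controls were left out, and 22626 were fitted with limma 3.58.1 in R 4.3.3 (intensity trend, two-sided, 4 residual and 5.21 prior degrees of freedom, Benjamini-Hochberg over all, threshold 0.05). Background was the 95th percentile of the mean values of 27 bacterial control probe sets, and signal over it takes the place of depth; the number of arrays limits the precision. A gene is represented by its probe set of highest mean. All 161 members matched the reference table (GRCm38.p6) with 0 symbols changed, and 8 probe sets annotated to several genes, among which a matching symbol stood, were left out. Of the members, 43 probe sets carry an _s_at or _x_at suffix, which marks probes shared with other transcripts. Paralogue ratios were compared by exact permutation over arrays. Summed marker levels are sums of 2 to the power of the log2 value.

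The members, pairs, gene lists and motifs were chosen with earlier results of these data known. Values in every array are given for paralogue pairs, complex II, Cyc1, called probe sets and the 6 genes with the largest rise and fall. Per-array values of Ndufa1 and Clu, and the genes Sox9, Gata4, Wt1, Amh, Inha, Aard, Actg2, Acta2, Lin28a, Cdh1, Id4, Itga6, Vdac2, Vdac3, Atpif1, Pdha1, Pdha2, Slc25a3, Slc25a4, Slc25a5 and Vdac1, were given outside that rule after their values were seen. Alternatives were centring on array medians, quantile normalization, leaving out dim probe sets, replicate, round and module blocks, no trend, robust moderation, array weights, other thresholds, other probe sets per gene and leaving out each array; dropping shared-probe sets and the marker sum without Id4 were added after the data were seen. The procedure was tested on simulated data. Promoter windows are those of RefSeq, found for 72 of 87 genes.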

Additional observations from a re-analysis of the deposited data

How the results depend on the processing

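The number of members called depended on the setting. Against 2 higher, it was 1 under quantile normalization (Cycs), 1 with arrays centred on their median (Cox6b1, while both probe sets called as reported were lost), 1 with a log2 difference of at least 1 also required, 11 at an adjusted p under 0.1, 11 with array weights, 11 with the fluidics round as a block, 0 with the module as a block and 0 without an intensity trend. Leaving out 1 array gave 0 to 12: 0 without total testicular cell replicate 1, 2 or 3, 4 without stem cell replicate 1 or 2 and 12 without replicate 3. The round block, like the last of these settings, leaves stem cell replicate 3 out of the difference. Members called lower were 0, with a range of 0 to 2 when 1 array was left out (2 without stem cell replicate 2). With the replicate number as a block 11 members were called higher, 4 carriers higher, 2 tricarboxylic acid cycle genes higher and 1 further assembly factor lower; the round as a block gave 4, 2 and 1 for these lists. Same-numbered arrays deviated together with correlations of -0.01, 0.01 and 0.30, and not every array correlated best with its own number. With 3 arrays per group, whose deviations from the group mean cancel out, these correlations cannot decide whether the numbers pair the arrays. At an adjusted p under 0.1, 4 carriers and 1 cycle gene were higher, and with array weights 2 carriers. With 1 array left out, called carriers ranged from 0 to 4, cycle genes from 0 to 2 in each direction, and further assembly factors and biogenesis regulators called lower from 0 to 1. Centring moved the median of all probe sets to -0.15 and of the members to -0.11 (53 positive and 108 negative member probe sets, against 82 and 79 as deposited), and the medians of complexes I to V to -0.16, -0.065, -0.10, -0.12 and -0.027. The module block gave 0.084 for the members, 0.084 for complex I, 0.087 for IV and 0.13 for V. For complex III the round block gave -0.10 and leaving out an array -0.087 to 0.025; for complex V quantile normalization gave 0.13, array weights 0.063 and leaving out an array 0.049 to 0.095. The sign turned for several genes and pairs, among them Ndufa5, Ndufs4, Sdhc and Atp5g2 against Atp5g1, whose differences as reported exceed 0.3 in size. Under the module block these were Cox4i1 (0.21), Cox7a2 (0.043), Cox8b (-0.22), Cox8c (0.0084), Ndufa5 (0.028), Sdhd (0.034) and Atp5g3 against Atp5g2 (0.38). Cox4i1 also turned under quantile normalization (0.017) and the round block (0.00040), Cox8b under centring (-0.072) and the round block (-0.057), and Sdha under centring (-0.065). With the probe set of lowest mean Ndufs4 gave 0.14, Sdhc 0.018, Sdhd 0.057, Atp5g2 against Atp5g1 -0.14 and Atp5g3 against Atp5g2 0.86, and the mean over probe sets gave 0.41 for the last. With 1 array left out, the range crossed 0 for Cox4i1 (-0.11 to 0.021), Cox6a2 (-0.16 to 0.0039), Cox7a1 (-0.076 to 0.51), Cox8b (-0.061 to 0.18), Sdha (-0.017 to 0.13), Atp5g3 against Atp5g2 (-0.17 to 0.021) and Cox7a1 against Cox7a2 (-0.046 to 0.58). All 15 alternatives kept the sign of each testis pair, with ranges of -1.61 to -0.75 for cytochrome c, -1.82 to -1.15 for Cox6b and -1.48 to -0.38 for Cox8. A kept sign was not particular to these pairs. Cox8b against Cox8a gave -1.12 to -0.83 with 1 array left out, -1.29, -0.96 and -1.03 within round 1, round 3 and module 2, and -0.99 to -0.14 over probe sets. Cox4i2 against Cox4i1, Cox6a2 against Cox6a1 and Atp5g3 against Atp5g1 also kept their sign with 1 array left out. A pseudocount was not varied, since the values were already logarithms. Of the 161 probe sets 5 were not above background, of Atp5g2, Cox5b, Cox7c, Ndufa12 and Ndufab1.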
